A study of Mus musculus with 2 samples.

Results

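The genes described here encode the T cell receptor complex, the CD8 coreceptor and the first signalling proteins that act on them. They were chosen by name, as 10 genes: Cd3d, Cd3e, Cd3g, Cd247, Trac, Cd8a, Cd8b1, Lck, Zap70 and Lat. Of these, 9 were matched by symbol to the 27998 genes of the deposited lists, and Trac was not analysed here. Each of the 9 had UMIs in both libraries (UMI, unique molecular identifier, a tag that marks 1 captured RNA molecule). The cells were CD8+ T cells from the spleens and lymph nodes of OT-I mice aged 8 to 12 weeks, a strain whose T cells carry a transgenic receptor against the ovalbumin peptide SIINFEKL. In both groups splenocytes were activated with that peptide and interleukin-2 (100 U/ml) for 48 h and moved to expansion medium with the same interleukin-2. The transient glucose restriction group (TGR) was then exposed to 1 mM glucose, and the control group to 11 mM glucose, for 20 h. The sample descriptions name 3 days of growth before the exposure instead. Each group is 1 10x Chromium library (v2 kit), so every difference below has no replicate check, no test of glucose was possible, and all intervals cover counting error only.

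T cells sense antigen through the variable receptor chains, which have no signalling part of their own and depend on the CD3 gamma, delta and epsilon chains and on the zeta chain encoded by Cd247. CD8, usually a pair of an alpha chain (Cd8a) and a beta chain (Cd8b1), binds class I MHC and brings the kinase Lck to the engaged receptor. Lck phosphorylates the CD3 and zeta tails, the kinase Zap70 docks there, and Zap70 phosphorylates Lat, a membrane-spanning adaptor on which the downstream complexes assemble. In cytotoxic cells this chain of events sets off killing and cytokine release.

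The receptor genes lie in clusters. In the GRCm38 build (mm10), Cd3g (ENSMUSG00000002033, chromosome 9, 44969572 to 44980431, minus strand) and Cd3d (ENSMUSG00000032094, chromosome 9, 44981786 to 44987339, plus strand) point away from each other, with 1354 bases between their starts. Cd3e (ENSMUSG00000032093, chromosome 9, 44998740 to 45009627, minus strand) follows Cd3d. On chromosome 6, Cd8b1 (ENSMUSG00000053044, 71322788 to 71337494) and Cd8a (ENSMUSG00000053977, 71373427 to 71379173) lie on the plus strand with 35932 bases between them. Cd247 (ENSMUSG00000005763, 165788681 to 165877277) and Zap70 (ENSMUSG00000026117, 36761798 to 36782818) lie on the plus strand of chromosome 1. Lck (ENSMUSG00000000409, chromosome 4, 129548344 to 129573641) and Lat (ENSMUSG00000030742, chromosome 7, 126363824 to 126369570) lie on minus strands. Same-strand annotations overlap Cd3e (Gm48720), Cd247 (Gm16565), Lck (Mir8119) and Lat (Mir7058), and how reads in those overlaps were counted was not tested.

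The 250 bases before the start of Cd3d and of Cd3g are shown because, among the pairs compared below, the balance of these neighbours differed most between the libraries. Those of Cd8a are shown because its ratio of barcodes rich in mitochondrial RNA over kept cells was the highest of the 9. Capitals mark GGAA on either strand (GGAA or TTCC), the core of sites bound by ETS transcription factors. The sequences are from RefSeq (GRCm38.p6), written 5′ to 3′ on the strand of the gene, and 8 of the 10 named genes matched that table.
Cd3d, chr9:44981536-44981785, plus strand: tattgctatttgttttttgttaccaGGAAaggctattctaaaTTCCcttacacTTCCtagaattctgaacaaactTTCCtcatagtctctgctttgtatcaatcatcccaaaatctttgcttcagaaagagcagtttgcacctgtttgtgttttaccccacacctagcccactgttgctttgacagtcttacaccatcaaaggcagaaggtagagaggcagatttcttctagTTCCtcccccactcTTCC
Cd3g, chr9:44980432-44980681, minus strand: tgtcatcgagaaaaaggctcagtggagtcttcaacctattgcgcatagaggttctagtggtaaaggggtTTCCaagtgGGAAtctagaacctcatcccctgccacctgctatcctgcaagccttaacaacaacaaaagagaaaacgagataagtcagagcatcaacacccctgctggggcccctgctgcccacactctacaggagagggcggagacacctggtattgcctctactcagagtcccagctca
Cd8a, chr6:71373177-71373426, plus strand: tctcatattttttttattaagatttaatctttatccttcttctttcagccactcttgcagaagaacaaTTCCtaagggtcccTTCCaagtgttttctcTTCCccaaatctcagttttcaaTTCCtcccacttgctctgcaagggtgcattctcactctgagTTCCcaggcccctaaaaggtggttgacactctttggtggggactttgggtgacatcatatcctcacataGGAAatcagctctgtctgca
The Cd3d stretch holds 6 such matches, that of Cd3g 2 and that of Cd8a 6. GGAA was found on either strand in 93.4% of 32851 RefSeq promoter windows of this length, with a median of 3, so its presence does not set these genes apart. CANNTG, the E-box, occurs 1 time before Cd3d, 3 times before Cd3g and 2 times before Cd8a and is found in 66.2% of windows. TATAAA on either strand is in none of the 3 and in 12.4% of windows. A match is a description of the letters and not a bound site.

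Cells were kept with at least 500 genes and under 10% of UMIs on mitochondrially encoded genes (named with mt-). This left 2546 TGR cells (19696068 UMIs) and 3127 control cells (14730128 UMIs). A kept cell had a median of 6266 UMIs in TGR and 4030 in control. The median share of ribosomal protein genes was 49.2% in TGR cells and 39.6% in control cells. These gaps stand beside every level below, since a larger ribosomal share lowers all other genes on a scale of total UMIs. Of the barcodes, 11 occurred in both libraries, 9 of them among kept cells of both. The defining markers of other cell types were near 0: Ms4a1 had 1 UMI in TGR and 3 in control, Lyz2 0 in TGR and 1 in control, Ncr1 1 in TGR and 0 in control, and Cd4 26 in TGR and 19 in control. The summed level of 6 myeloid markers was 64.6 CPM in TGR and 123 CPM in control, nearly all of it Cst3. Other markers on the lists were detected: H2-Ab1 had 637 UMIs in TGR and 275 in control, Ctla4, which activated T cells also express, 1267 in TGR and 727 in control, Cd79b 241 in TGR and 263 in control, and Fcer1g 53 in TGR and 107 in control. Their part in the results was not tested. Cells with at least 2 myeloid or at least 2 B cell markers numbered 40 in TGR and 30 in control, and Cd3d was found in 95% of these in TGR and 90% in control. Cd8b1 was found in 72.5% of them in TGR, against 90.1% of other TGR cells, and in 63.3% of them in control, against 81.8% of other control cells, although they had more UMIs. They were thus not taken as a population that lacks the receptor genes, and the level that free RNA alone would give was not measured.

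Levels over all kept cells are in CPM (UMIs of the gene per 10⁶ UMIs of the summed cells), and ratios are log2 of TGR over control with a 95% exact interval from the split of the gene's UMIs. A gene counts as higher or lower below when it differed by 1.5-fold or more and its interval excludes equality. By this rule 0 of the 9 genes were higher and 2 were lower in TGR, Cd3g and Lat. Of the 6667 genes that reached 10 CPM in TGR or in control, 9.33% were higher and 21.8% lower, so a count of 2 in 9 is close to the share among all genes. With every cell thinned to 1500 UMIs neither is counted, at log2 ratios of −0.49 for Cd3g and −0.53 for Lat. The median log2 ratio was −0.32 over the 9 genes and −0.16 over all genes scored.

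The CD3 chains did not move as a block. Cd3d stood at 681 CPM in TGR (13414 UMIs) and 677 CPM in control (9965 UMIs), a log2 ratio of 0.0097 (−0.028 to 0.047). Cd3g, whose start is 1354 bases away, stood at 373 CPM in TGR (7352 UMIs) and 581 CPM in control (8558 UMIs), 1.56-fold lower (1.51 to 1.61). Its interval lies wholly below that of Cd3d. Cd3e, the chain that most CD3 antibodies bind, stood at 96.6 CPM in TGR and 122 CPM in control, a log2 ratio of −0.33 (−0.43 to −0.24). Cd247, whose zeta chain carries most of the phosphorylation sites of the complex, stood at 119 CPM in TGR and 106 CPM in control. Its log2 ratio of 0.18 (0.083 to 0.27) was the highest of the 9 genes, although in the third of cells with the fewest UMIs it was −0.15 (−0.44 to 0.12).

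Both CD8 chains had negative ratios short of the 1.5-fold limit. Cd8a stood at 248 CPM in TGR and 364 CPM in control, a log2 ratio of −0.56 (−0.61 to −0.50). Cd8b1 stood at 440 CPM in TGR and 545 CPM in control, a log2 ratio of −0.31 (−0.35 to −0.27). The interval of Cd8a lies wholly below that of Cd8b1.

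Among the signalling proteins the adaptor differed most. Lat stood at 424 CPM in TGR and 637 CPM in control, 1.503-fold lower (1.46 to 1.55), which is just past the limit. Lck, the kinase that starts the cascade, stood at 301 CPM in TGR and 376 CPM in control, a log2 ratio of −0.32 (−0.37 to −0.27). Zap70 was the least abundant, at 55.3 CPM in TGR and 66.8 CPM in control, with a log2 ratio of −0.27 (−0.40 to −0.15).

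**Figure D1:**
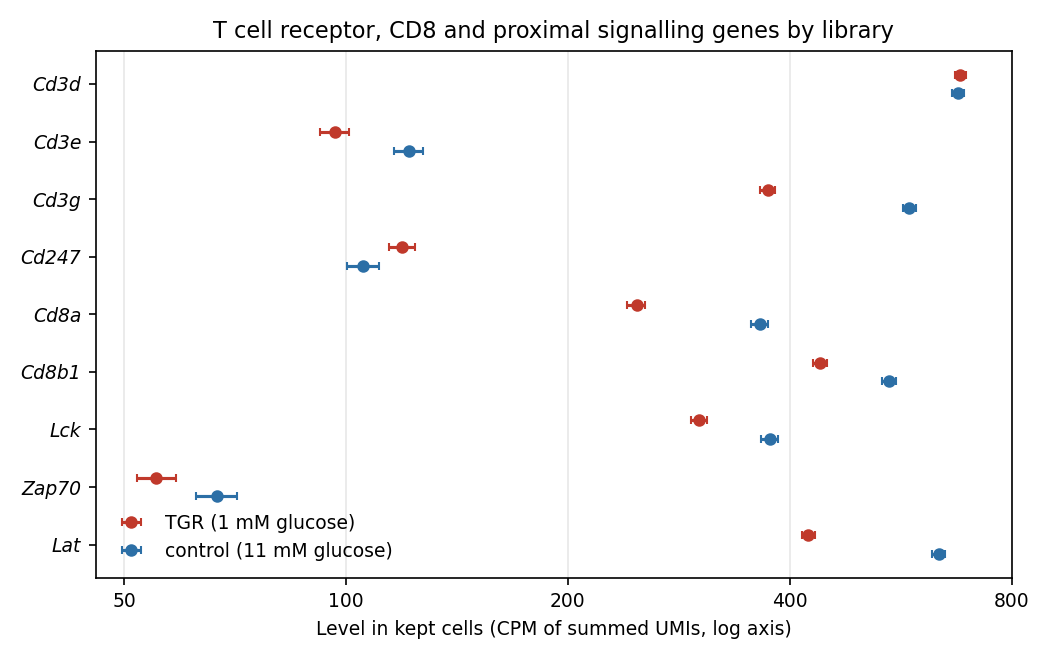
Level of each of the 9 genes in kept cells of the TGR (red) and control (blue) libraries, in CPM of summed UMIs on a log axis; bars are 95% exact counting intervals, with 1 library per group. Cd3d overlaps between the libraries at 681 CPM in TGR and 677 CPM in control. The TGR level of Cd247 lies above its control level and those of the other 7 lie below theirs. Only Cd3g and Lat differ by 1.5-fold or more.

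Each scaling adds 1 constant to all log2 ratios, so it moves their place relative to 0 but not their order. With total UMIs, TMM factors, DESeq2 factors and totals without ribosomal protein and mt- genes alike, 2 genes were above 0 and 7 below. With ribosomal protein and mt- genes left out of the totals, every log2 ratio was 0.26 higher, 0 of the 9 genes were higher or lower at 1.5-fold, and the median was −0.063 against 0.10 over all genes. On this scale Cd3d stood at 0.27, Cd247 at 0.43, Cd3g at −0.38 and Lat at −0.33. Counted as UMIs per cell with no scaling, which adds 0.72, all 9 genes were above 0, as was the median of all genes at 0.56. Cd3d then averaged 5.27 UMIs per TGR cell and 3.19 per control cell. Cd3g averaged 2.89 UMIs per TGR cell and 2.74 per control cell, Cd8a 1.92 per TGR cell and 1.72 per control cell, and Lat 3.28 per TGR cell and 3.00 per control cell.

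**Figure D2:**
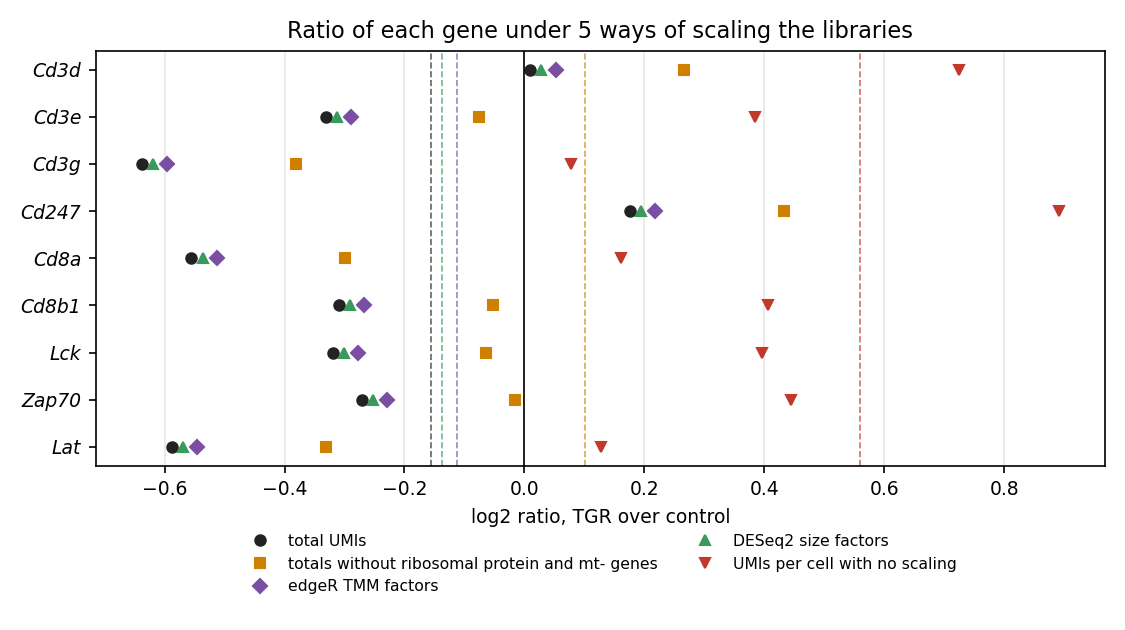
Log2 ratio of TGR over control for each gene (rows) under 5 ways of scaling the libraries (symbols); dashed lines mark the median of all scored genes under the same scaling, in the same colour. Under total UMIs 7 of 9 genes lie below 0, under UMIs per cell with no scaling all 9 lie above it, each scaling moving all genes by the same amount.

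The balance of 2 genes within a library does not depend on how libraries are scaled, and gene length cancels when it is set beside the same balance in the other. Whether capture of each gene was equal in both libraries was not tested. There were 0.548 UMIs of Cd3g per UMI of Cd3d in TGR (0.533 to 0.564) and 0.859 in control (0.834 to 0.884), so that the TGR balance was 0.638 times that of control (0.613 to 0.665). It was lower in TGR in each cell cycle phase, at 0.566 in TGR and 0.7997 in control among G1 cells, 0.525 in TGR and 0.897 in control among S cells, and 0.526 in TGR and 0.865 in control among G2/M cells. It was also lower in each of 3 bands of UMIs per cell, at 0.586 in TGR and 0.892 in control in the lowest band, 0.610 in TGR and 0.883 in control in the middle, and 0.517 in TGR and 0.810 in control in the highest. With every cell thinned to 1500 UMIs the balance was 0.594 in TGR and 0.882 in control. Within these subsets no TGR interval reached a control interval.

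Cd8a per Cd8b1 was 0.564 in TGR (0.544 to 0.584) and 0.668 in control (0.646 to 0.692). The intervals of the libraries overlapped in G1 (0.547 in TGR, 0.606 in control) and in S (0.656 in TGR, 0.689 in control) and were apart in G2/M (0.541 in TGR, 0.678 in control). The balance also moved with depth within each library, at 0.467, 0.505 and 0.607 in the low, middle and high bands of TGR cells and 0.544, 0.687 and 0.778 in those of control cells. Lat per Lck was 1.41 in TGR and 1.69 in control, Cd247 per Cd3d 0.175 in TGR and 0.156 in control, and Cd3e per Cd3d 0.142 in TGR and 0.180 in control. Zap70 per Lck was 0.184 in TGR (0.172 to 0.196) and 0.178 in control (0.166 to 0.190), intervals that overlap.

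**Figure D3:**
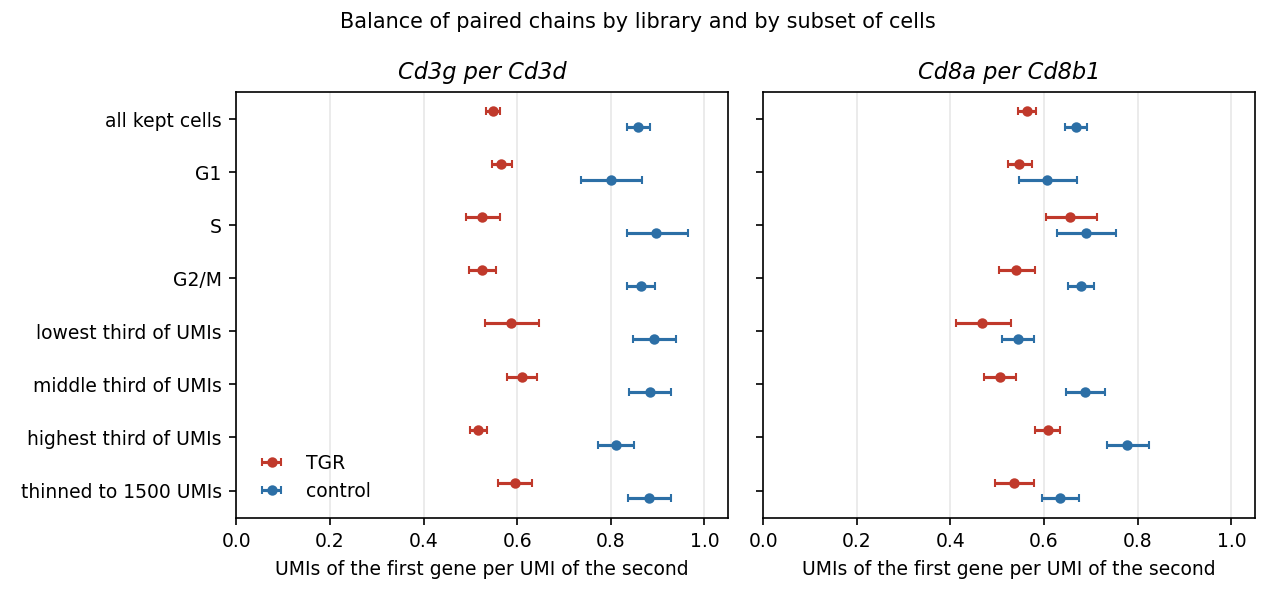
UMIs of Cd3g per UMI of Cd3d (left) and of Cd8a per UMI of Cd8b1 (right) in TGR (red) and control (blue) cells, over all kept cells and within phases, bands of UMIs per cell and thinned cells (rows); bars are 95% counting intervals. The Cd3g balance is lower in TGR in all 8 rows, whereas the Cd8a intervals overlap in G1, S and the lowest band.

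Shares of cells with a UMI went against each other before and after depth was made equal. Unthinned, all 9 genes were found in a larger share of TGR cells, among them Cd3d in 97.7% of TGR and 89.5% of control cells, Cd3g in 89.8% of TGR and 84.1% of control cells, and Cd8a in 75.1% of TGR and 71.2% of control cells. After thinning each cell to 1500 UMIs, which left out 0 TGR and 91 control cells, 2 genes had the larger share in TGR, Cd3d (63.8% of TGR and 61.6% of control cells) and Cd247 (16.3% of TGR and 14.5% of control cells). The other 7 had the smaller share in TGR. The intervals of the libraries overlapped for Cd3d, Cd247, Cd3e and Zap70. Lat was found in 47.6% of TGR cells (45.6 to 49.5) and 60.1% of control cells (58.3 to 61.9). Cd3g was found in 46.0% of TGR and 56.0% of control cells, and Cd8a in 31.9% of TGR and 41.4% of control cells. Cd8b1 was found in 48.3% of TGR and 54.2% of control cells, Lck in 37.7% of TGR and 42.2% of control cells, Cd3e in 14.7% of TGR and 16.7% of control cells, and Zap70 in 8.13% of TGR and 9.19% of control cells. The thinned order is that of the CPM.

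A UMI of neither CD8 chain was found in 5.22% of TGR cells and 9.43% of control cells unthinned, and in 36.5% of TGR and 28.8% of control cells after thinning. None of the 4 CD3 and zeta genes was found in 5 TGR and 63 control cells, and none of the 9 genes in 0 of 2546 TGR cells, which allows a share of up to 0.145%, and in 1 control cell. These counts are unthinned, as is the median of 7 of the 9 genes found in a TGR cell and 6 in a control cell. After thinning the order was reversed, with a median of 3 genes in a TGR cell and 4 in a control cell. None of the 4 CD3 and zeta genes was then found in 403 of 2546 TGR and 397 of 3036 control cells. None of the 9 genes was then found in 56 TGR and 31 control cells. Correlations between pairs of the 9 genes across cells, after thinning, ran from −0.021 to 0.092 in TGR and from −0.033 to 0.11 in control over 36 pairs, too weak in counts this sparse to show genes that vary together.

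The next question was whether the genes follow the cell cycle, in which the libraries differ. Phases were called from relative scores of 43 S and 54 G2/M genes, none of them among the 9, after thinning. In TGR 1519 cells were called G1, 429 S and 598 G2/M, and in control 472 were called G1, 552 S and 2012 G2/M. S and G2/M together thus held 40.3% of TGR cells (38.4 to 42.3) and 84.5% of control cells (83.1 to 85.7). Unthinned, the shares were 51.2% in TGR and 95.5% in control. Free RNA can enter these scores, so they give no rate of division.

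Within a library, S and G2/M cells differed little from G1 cells. In TGR 0 of the 9 genes were higher and 0 lower at 1.5-fold in S and G2/M, where 7.75% of all genes were higher and 1.55% lower. Zap70 was above 0, at 58.9 CPM in S and G2/M and 52.2 CPM in G1, and the other 8 were below it, with a median of −0.11 against 0.049 over all genes. Among TGR S cells alone Cd8a (0.063) and Cd247 (0.040) were also above 0, with intervals that include 0. Among TGR G2/M cells both were below it, at −0.18 and −0.054. Lat stood at 391 CPM in TGR S and G2/M cells and 452 CPM in TGR G1 cells, a log2 ratio of −0.21 (−0.27 to −0.15). In control 0 were higher and 0 lower, where 4.08% of all genes were higher and 1.31% lower, and the median was 0.088 against 0.060 over all genes. Of the control genes 7 were above 0, the highest being Cd8a at 369 CPM in S and G2/M and 323 CPM in G1, a log2 ratio of 0.19 (0.072 to 0.32). With phases called on unthinned cells only 4 of the 9 control ratios were above 0. With the thinned calls, Cd8b1 (−0.11), Lck (−0.036) and Lat (−0.025) were below 0 among control S cells alone, with intervals that include 0. In TGR, Lck stood at 282 CPM in S and G2/M and 318 CPM in G1. In control it stood at 380 CPM in S and G2/M and 343 CPM in G1, and whether these opposite ratios differ was not tested.

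Within phases the counts of lower genes depended on how phases were called. Among G1 cells 0 genes were higher and 0 lower in TGR (all genes: 9.27% higher, 21.5% lower), and the median log2 ratio was −0.20. With phases called on unthinned cells 3 were lower in G1, Cd3e (−0.59), Cd3g (−0.70) and Cd8b1 (−0.77). That count rests on 140 control cells called G1, against 472 with the thinned calls. The share of all genes lower under the unthinned calls is not given here, so the count of 3 has no background to be read against. Among S cells 0 were higher and Cd3g was lower, at 349 CPM in TGR and 586 CPM in control (all genes: 11.5% higher, 20.4% lower). Among G2/M cells 0 were higher and 3 lower (all genes: 12.1% higher, 21.6% lower), and the median was −0.43 against −0.10 over all genes. These were Lat (373 CPM in TGR, 653 CPM in control, log2 ratio −0.81, −0.88 to −0.74), Cd3g (346 CPM in TGR, 583 CPM in control, −0.75) and Cd8a (225 CPM in TGR, 376 CPM in control, −0.74). In G1 the log2 ratio of Lat was −0.42 (−0.51 to −0.32) and that of Cd8a −0.35 (−0.47 to −0.22), and the difference between phases was not tested. Cd3d had log2 ratios of −0.0084 in G1, 0.025 in S and −0.034 in G2/M. Median UMIs per cell were 5615, 6358 and 7866 in TGR and 3509, 3782 and 4426 in control, for G1, S and G2/M in turn, and the part of depth in these values was not tested. With ribosomal protein and mt- genes left out of the totals, 0 of the 9 were lower in any phase, and the G2/M ratios were −0.57 for Lat, −0.52 for Cd3g and −0.51 for Cd8a.

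**Figure D4:**
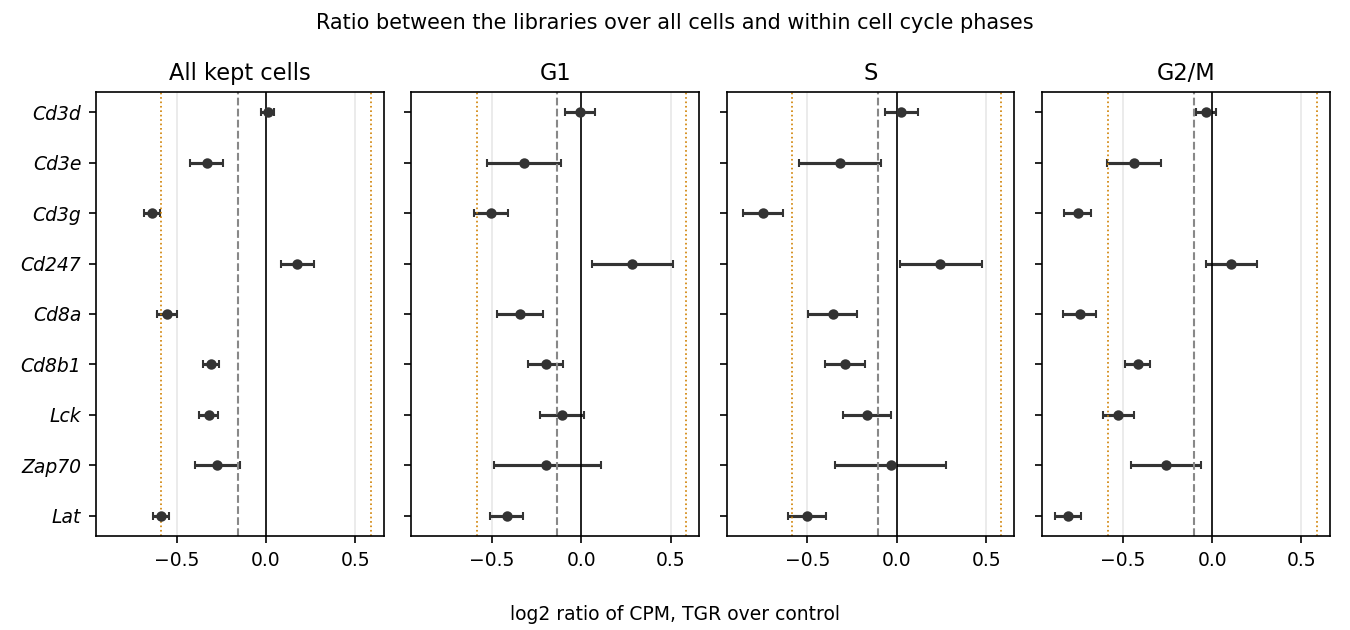
Log2 ratio of TGR over control (CPM) for each gene over all kept cells and within cells called G1, S and G2/M; bars are 95% counting intervals, the dashed line the median of all scored genes and dotted lines the 1.5-fold limits. Lat, Cd3g and Cd8a lie beyond the lower limit in G2/M, whereas in G1 no gene does.

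Other genes of the pathway were read as 4 lists. Of 58 matched genes 54 reached 10 CPM in TGR or in control. Their median log2 ratio was −0.13, with 5 higher and 5 lower in TGR (all genes: 9.33% higher, 21.8% lower). Among surface partners 0 of 4 were higher and 2 lower. Cd2, an adhesion and costimulatory receptor, stood at 202 CPM in TGR and 328 CPM in control, and Ptprcap, which associates with CD45, at 409 CPM in TGR and 626 CPM in control. Ptprc, the CD45 phosphatase that keeps Lck ready to act, stood at 333 CPM in both. Among proximal activators and adaptors 1 of 18 was higher and 0 lower. That was Tespa1, a low-level adaptor at 12.6 CPM in TGR and 8.35 CPM in control, 1.51-fold higher. Grb2, an adaptor that binds Lat, stood at 49.0 CPM in TGR and 72.4 CPM in control, Rhoh, a GTPase that helps bring Zap70 to the receptor, at 168 CPM in TGR and 214 CPM in control, and Fyb, the adaptor ADAP, at 184 CPM in TGR and 159 CPM in control.

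Negative regulators had a median log2 ratio of −0.27 over 17 scored genes, 3 of them higher and 1 lower. Dok1, an adaptor that restrains receptor signals, was 2.01-fold higher at 33.4 CPM in TGR and 16.6 CPM in control. Its relative Dok2 was 1.93-fold lower, at 41.1 CPM in TGR and 79.5 CPM in control. Dgka, a kinase that removes diacylglycerol, stood at 105 CPM in TGR and 64.0 CPM in control, and Cblb, a ubiquitin ligase that raises the threshold for activation, at 43.8 CPM in TGR and 26.7 CPM in control, both 1.64-fold higher. Csk, the kinase that inhibits Lck, stood at 120 CPM in TGR and 147 CPM in control. Among distal nodes 1 of 15 was higher and 2 lower. Ppp3ca, a catalytic subunit of calcineurin, stood at 60.3 CPM in TGR and 32.4 CPM in control. Nfatc2, an NFAT factor that calcineurin activates, stood at 21.6 CPM in TGR and 32.4 CPM in control, at the limit, and Hras, a small GTPase, at 17.6 CPM in TGR and 29.9 CPM in control. Map2k2, a kinase of the ERK cascade, stood at 113 CPM in TGR and 153 CPM in control, and Nras, another GTPase, at 109.7 CPM in TGR and 106 CPM in control.

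Dok1, Dgka, Cblb and Ppp3ca were also higher and Dok2 lower within each phase, a set named after its values were seen. In G1 Dok1 stood at 30.7 CPM in TGR and 19.9 CPM in control, and Dok2 at 42.3 CPM in TGR and 81.4 CPM in control. In G2/M Dok1 stood at 36.2 CPM in TGR and 15.6 CPM in control, and Dok2 at 38.3 CPM in TGR and 80.6 CPM in control. Over the 54 or 55 list genes scored in a phase, 8 were higher and 2 lower in G1 (all genes: 9.27% and 21.5%), 5 higher and 8 lower in S (11.5% and 20.4%), and 6 higher and 9 lower in G2/M (12.1% and 21.6%). On the scale without ribosomal protein and mt- genes 8 were higher and 1, Dok2, was lower, and Cd2, Ptprcap, Nfatc2 and Hras were no longer counted as lower. That scale raises every log2 ratio by 0.26, to a median of 0.10 over all genes. The shares of all genes on it are not given here, so these counts cannot be set beside the shares above.

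Barcodes with 10% or more mt- UMIs, usually discarded as damaged cells, numbered 2 in TGR and 209 in control, and only those of control could be compared. They had a median of 1545 UMIs against 4030 in kept control cells. Their median ribosomal protein share was 14.5% against 39.6% in kept control cells. In these barcodes 8 of the 9 genes were higher than in kept control cells and 0 lower, where 35.9% of all genes were higher and 11.1% lower. Cd8a stood at 1346 CPM in high-mt barcodes and 364 CPM in kept cells, 3.70-fold higher, Cd3g at 1878 CPM in high-mt barcodes and 581 CPM in kept cells (3.23-fold), and Cd8b1 at 1734 CPM in high-mt barcodes and 545 CPM in kept cells (3.18-fold). Cd247, Cd3d and Cd3e were 2.79-fold, 2.56-fold and 2.11-fold higher. The signalling genes had smaller ratios, at 1.72-fold for Lat, 1.60-fold for Zap70 and 1.36-fold for Lck (511 CPM in high-mt barcodes and 376 CPM in kept cells), which was not counted.

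Leaving ribosomal protein and mt- genes out of the totals lowers every gene's ratio alike, so the gap between receptor and signalling genes stays by construction. All 6 receptor and CD8 genes were then 1.82-fold to 3.18-fold higher, while Lck (1.17-fold), Zap70 (1.38-fold) and Lat (1.48-fold) were not counted (all genes: 27.7% higher, 13.8% lower, median log2 ratio 0.31). Per barcode, Cd8a averaged 2.41 UMIs in high-mt barcodes and 1.72 in kept cells, and Cd3g 3.36 in high-mt barcodes and 2.74 in kept cells. Cd8b1 and Cd247 (0.526 in high-mt barcodes, 0.498 in kept cells) also averaged more, although the high-mt barcodes held fewer UMIs in all. Cd3d and Cd3e went the other way. Cd3d averaged 3.096 UMIs in high-mt barcodes and 3.187 in kept cells, and Cd3e 0.459 in high-mt barcodes and 0.573 in kept cells. Lck averaged 0.914 UMIs in high-mt barcodes and 1.77 in kept cells, and Zap70 0.191 in high-mt barcodes and 0.315 in kept cells. There were 2.63 UMIs of Cd8a per UMI of Lck in high-mt barcodes (2.23 to 3.13) and 0.969 in kept cells (0.933 to 1.01). Cd8a was found in 85.2% of high-mt barcodes (79.6 to 89.7) and 71.2% of kept control cells, unthinned. Set against kept control cells no deeper than 9 in 10 of these barcodes, a comparison chosen after the data were seen, 8 of the 9 genes were again higher. The share of all genes that were higher in that comparison is not given here, so this count has no background to be read against. The part of ribosomal share and depth in the CPM ratios was not tested further.

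Across bands of the mt- share in the control library the receptor genes stood higher above 5% mt- and most so above 10%. The summed level of the 6 receptor and CD8 genes, in CPM of the UMIs outside ribosomal protein and mt- genes, was 4208 under 2.5% mt-, 4108 from 2.5 to 5%, 5033 from 5 to 10%, 10602 from 10 to 20% and 12002 at 20% or more. That of Lck, Zap70 and Lat was 1832, 1919, 1868, 2570 and 2592 in the same bands. UMIs of the first group per UMI of the second were 2.30, 2.14, 2.69, 4.13 and 4.63. The last bands held 165 and 44 barcodes.

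**Figure D5:**
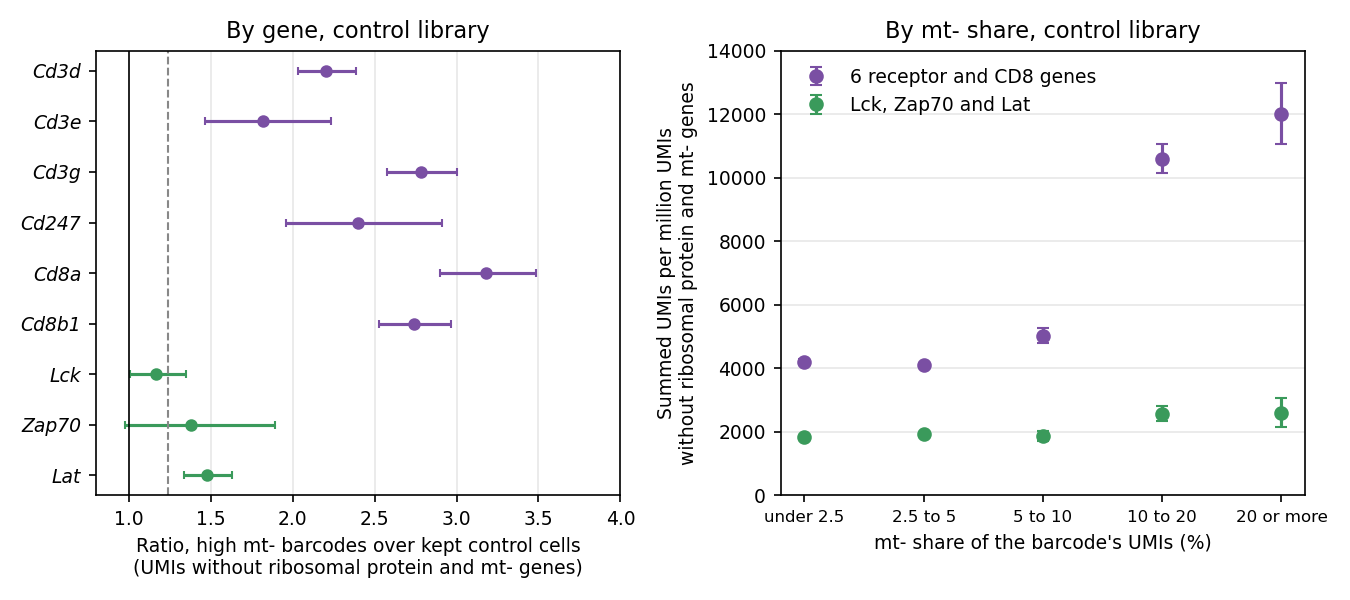
Left, ratio of high-mt control barcodes over kept control cells for each gene, with ribosomal protein and mt- genes left out of the totals and the median of all scored genes dashed; right, summed level of the 6 receptor and CD8 genes (purple) and of Lck, Zap70 and Lat (green) by mt- share of the barcode. Bars are 95% counting intervals. The purple level is 4208 in the lowest band and 12002 in the highest, the green level 1832 and 2592.

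The same contrast separated the wider pathway by where its proteins sit. All 4 scored surface partners were higher in high-mt barcodes, from 3.75-fold (Cd28) to 4.61-fold (Ptprc, 1539 CPM in high-mt barcodes and 333 CPM in kept cells). Of the 18 negative regulators 7 were higher, among them all 5 whose proteins span the membrane: the receptors Cd5 (3.90-fold) and Cd6 (4.26-fold) and the adaptors Sit1 (3.98-fold), Lax1 (4.50-fold) and Pag1 (4.81-fold). The other 2 were Ptpn22 and Cbl, among 13 with no membrane-spanning part. Of the 18 proximal activators 9 were higher, and of 15 distal nodes 4 were higher. With the 9 receptor and signalling genes included, 16 of 16 scored genes of membrane-spanning proteins were higher (median log2 ratio 1.94), against 16 of 48 others (median 0.44) and 35.9% of all genes (median 0.55). Leaving ribosomal protein and mt- genes out of the totals gave 15 of 16 membrane-spanning (median 1.72) and 10 of 49 others (median 0.22), where 27.7% of all genes were higher. This division by protein location was made after the values were seen, 7 of the 16 are receptor and signalling genes already described, and it carries no test. Lat, which also spans the membrane, had the lowest ratio of the 16.

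Genes of most similar pattern were sought among 1585 genes with at least 50 CPM in both libraries, by the mean absolute difference of centred log2 CPM (1 CPM added) over the 6 combinations of library and phase. For Cd3d the closest was Ptpn18, a phosphatase gene (mean difference 0.014, 639 CPM in TGR and 623 CPM in control). For Cd3g it was Ddx24, an RNA helicase gene (0.019, 107 CPM in TGR and 168 CPM in control), for Cd8a Dctn3, a dynactin subunit gene (0.028, 93.8 CPM in TGR and 137 CPM in control), and for Lat Ppp1r11 (0.024, 69.9 CPM in TGR and 105 CPM in control). Cd247 was closest to Gng5 (0.016), Cd3e to Ost4 (0.021), Cd8b1 to Cdc37 (0.029), Zap70 to Pdia6 (0.037) and Lck to Taok3 (0.046). None of the 9 genes had another of the 9 among its 3 closest. With 6 points that come from 2 libraries, such matches describe these values only.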

How the data were processed

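The deposited files hold, per the file headers and their values, whole-number counts of UMIs per gene and barcode for 2 libraries, with no normalization by the authors. The submitters' processing notes list Cell Ranger 2.2, Seurat 3 and the build mm10 with no role, and it is not given in the sources used here whether barcodes were filtered or doublets removed. No doublet caller was run. UMIs were summed over cells with at least 500 genes and under 10% mt- UMIs, scaled to CPM and compared as log2 ratios with 0.5 UMI added per group and a 95% interval (Clopper-Pearson, on how a gene's UMIs split between the groups). The interval was checked on simulated counts that held counting error only. That check does not cover spread between cells or libraries. Intervals of a balance between 2 genes, and of their ratio, cover counting error too. With 1 library per group no p-value was computed. Genes with at least 10 CPM in either group were scored. Ribosomal protein (102) and mt- (13) genes were taken by symbol. Phases were called with scanpy 1.11.5 after thinning to 1500 UMIs (seed 1); edgeR 4.0.16 and DESeq2 1.42.0 gave alternative factors. Positions are from GENCODE M21. Beside the 9 genes, the text names from each list the 2 scored genes of largest absolute ratio, the 2 of highest mean CPM and any counted as higher or lower when at most 5 were. The genes, lists and rules were chosen with earlier results of these data known. Some genes that these rules would name are not reported here.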

Additional observations from a re-analysis of the deposited data

Results flagged for a closer look

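Lck was singled out because its ratio of S and G2/M cells over G1 cells had opposite signs in the libraries, with intervals that both exclude 0. The log2 ratio was −0.17 in TGR (−0.25 to −0.10) and 0.15 in control (0.031 to 0.27). The difference between them was not tested. With phases called on unthinned cells the control ratio was 0.0084 (−0.25 to 0.28), and with every cell thinned to 1500 UMIs it was 0.13 (−0.067 to 0.33). Leaving ribosomal protein and mt- genes out of the totals gave 0.097 (−0.022 to 0.22). The control interval thus included 0 in all 3 alternatives, while the TGR ratio stayed between −0.22 and −0.17 in the settings tried. With the 2 phases taken apart, only G2/M cells had opposite signs. Their ratio over G1 was −0.23 in TGR (−0.32 to −0.14) and 0.19 in control (0.069 to 0.31). That of S cells was −0.094 in TGR (−0.19 to 0.0066) and −0.036 in control (−0.19 to 0.12).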

How the results depend on the processing

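Of the 9 genes, 2 were counted as lower in TGR over all kept cells. The count was 1 (Cd3g) with edgeR TMM factors, DESeq2 size factors, phases weighted equally or the top 1% of cells by UMIs left out, and 0 with totals without ribosomal protein and mt- genes, every cell thinned to 1500 UMIs, cells weighted equally, or within the lowest or middle band of UMIs per cell. Within the highest band it was 3 (Cd3g, Cd8a and Lat). The median log2 ratio was −0.063 without ribosomal protein and mt- genes, −0.25 after thinning, and −0.23, −0.11 and −0.38 in the lowest, middle and highest bands of UMIs. With no scaling of UMIs per cell 2 genes (Cd3d and Cd247) were higher, 0 lower and the median 0.40, and all 7 genes below 0 changed sign, among them both counted ones, Cd3g (0.077) and Lat (0.13). Unthinned, 9 of the 9 shares of cells were higher in TGR, against 2 after thinning (Cd3d and Cd247, whose intervals overlapped those of control). The Cd3g to Cd3d balance of TGR relative to control was 0.691 in the middle band and 0.674 after thinning, and that of Cd8a to Cd8b1 0.735 in the middle band and 0.781 in the highest. Within G1 and S the median was 0.031 and −0.040 without ribosomal protein and mt- genes, and −0.20 within G2/M, with 0 genes lower in S and in G2/M. With phases called on unthinned cells 3 were lower within G1, and in control 1 was lower in S and G2/M than in G1, with a median of −0.069. Both rest on 140 control cells called G1. For high-mt barcodes the median was 1.59 with totals without mt- UMIs, 1.14 without ribosomal protein and mt- genes, and 1.11 against kept cells with no more UMIs than the 90th percentile of these barcodes. For the pathway lists TMM factors gave 3 lower, totals without ribosomal protein and mt- genes 8 higher and 1 lower with a median of 0.15, and a minimum of 50 CPM 2 higher and 3 lower. Shares of all genes under these settings are not given here. The cause of these shifts was not tested. Comparisons with no scaling, without shared barcodes, without the top 1% of cells, and of balances and kept cells under a limit of UMIs were chosen after seeing the data. No paired analysis was possible because each group has 1 library. Depth limits Zap70 most, at 55.3 CPM in TGR.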
